A study of Mus musculus with 16 samples.

Results

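Myosin heavy chains are the motor subunits of myosin II, and 7 of the 56953 genes in the count table are described here. They were taken by name: the sarcomeric chains Myh6, Myh7 and Myh7b, the nonmuscle chains Myh9, Myh10 and Myh14, and the smooth muscle chain Myh11. The family was chosen by measured values of these libraries: the lower Myh7b and Myh7 in mutant hearts given the control virus, and the higher Myh7b after the Tnpo3 virus. Those values, and every comparison of Myh7 or Myh7b that uses the same libraries again, are given below as a description with no test. All 7 genes passed the filter on low counts.

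RNA came from the left ventricle of 16 Bl6J mice of both sexes, 4 to a group, and each mouse gave 1 library of poly(A)-selected RNA. Some mice were wild type (WT) and the others carried RBM20 P635L, an amino acid change in a heart splicing factor, on both alleles. Every mouse, controls included, carried an AAV9 vector: 1e12 viral genomes were injected at an age of 4 weeks through the tail vein, and hearts were collected 12 weeks later, at 16 weeks. The groups called Ctr received a vector in which the pCAG promoter drives iCre-T2A-eGFP, so the controls expressed Cre and a fluorescent protein. The groups called Tnpo3 received the Tnpo3 cDNA, which codes for a nuclear import receptor, from a vector whose promoter is not given in the sources used here. The WT groups are WT Ctr and WT Tnpo3, and the mutant groups are P635L Ctr and P635L Tnpo3.

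As background, a myosin II motor is a pair of heavy chains with light chains bound at the neck, and the heavy chain sets how fast it splits ATP. Myh6 codes for the fast alpha chain that dominates the adult mouse ventricle, and Myh7 for the slow beta chain, which is the fetal form in mice and rises in many stressed hearts. Myh7b is an ancient relative of both. Each of the 3 genes carries a microRNA in an intron: miR-208a in Myh6, miR-208b in Myh7 and miR-499 in Myh7b, and these are known to act on the choice between fast and slow myosins. The nonmuscle chains work in cell shape, adhesion and division, and Myh11 is the contractile myosin of vessel walls.

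The 3 intronic microRNAs are shown because their sequences tie the 3 cardiac genes together. Mature sequences are from RefSeq (GRCm38.p6), 5′ to 3′, with the seed, bases 2 to 8, in capitals.
mmu-miR-208a-3p, in Myh6, chr14:54949072-54949093, minus strand: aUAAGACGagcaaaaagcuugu
mmu-miR-208b-3p, in Myh7, chr14:54975710-54975731, minus strand: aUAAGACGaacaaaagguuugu
mmu-miR-499-5p, in Myh7b, chr2:155622893-155622913, plus strand: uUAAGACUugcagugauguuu
The miR-208a and miR-208b sequences have the same seed and share 19 of 22 bases. The seed of miR-499 matches that of miR-208a at 6 of 7 bases, and 12 of 21 bases match along the whole. Mature microRNAs were not measured by these libraries.

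The stretches upstream of Myh7b and Myh7 are shown because the family was chosen by the levels of these genes. Each is the 250 bases before the annotated start in RefSeq (GRCm38.p6), 5′ to 3′ on the gene's strand, with matches to the E-box letters CANNTG in capitals.
Myh7b, chr2:155610993-155611242, plus strand: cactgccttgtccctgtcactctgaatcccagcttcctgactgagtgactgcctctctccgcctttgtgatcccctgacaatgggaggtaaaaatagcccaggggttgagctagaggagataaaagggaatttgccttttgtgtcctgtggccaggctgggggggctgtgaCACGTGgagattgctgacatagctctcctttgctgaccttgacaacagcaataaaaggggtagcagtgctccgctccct
Myh7, chr14:54994550-54994799, minus strand: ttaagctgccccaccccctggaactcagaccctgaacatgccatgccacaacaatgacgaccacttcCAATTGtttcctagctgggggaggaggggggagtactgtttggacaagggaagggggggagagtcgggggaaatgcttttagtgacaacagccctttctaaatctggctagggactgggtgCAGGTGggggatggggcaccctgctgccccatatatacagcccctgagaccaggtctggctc
Searched on both strands, the Myh7b stretch held 1 E-box, 79 bases before the start, and the Myh7 stretch held 2, at 183 and 62 bases. An E-box was present in 66.2% of 32817 promoter windows of the same length. The MCAT letters CATTCC, which TEAD factors are known to bind, were in 12.6% of windows. They were in neither stretch printed here, though the windows of Myh6, Myh10 and RefSeq's other Myh7 start, farther upstream, each had 1. The MEF2 motif was in 2.92% of windows and in none of those of Myh6, Myh7, Myh7b, Myh9, Myh10 or Myh14. Myh11 had no entry.

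Library totals ran from 28493249 to 85922669 counts. A single gene, ENSMUSG00000119584, took 20% to 22.7% of the counts in WT Ctr replicates 2 and 4 and WT Tnpo3 replicate 4, against 0.703% to 5.3% elsewhere. These are called the rich libraries. Xist counts were above those of Y-linked genes in 3 of 8 WT libraries and 0 of 8 P635L libraries. The 3 were WT Ctr replicate 4 and WT Tnpo3 replicates 2 and 4. By this measure comparisons of P635L with WT are not balanced for sex. Normalised counts below are counts scaled to library size (CPM) with TMM factors, as mean ± SD over 4 libraries unless each library is given. Tnpo3 stood at 44.8 ± 3.29 CPM in WT Ctr and 44.5 ± 2.72 in P635L Ctr, 320 ± 126 in WT Tnpo3 and 464 ± 214 in P635L Tnpo3, and was lowest of the latter in replicate 4, at 234 CPM. Rbm20 was at 245 ± 78.5 CPM in WT Ctr and 235 ± 23 in P635L Ctr, which says nothing on the genotype, since an amino acid change leaves the transcript in place. Of 5 atrial markers, Myl7, Sln and Bmp10 were at most at 1.43 CPM in any library and Myl4 at 8.62. The fifth, Nppa, also a gene of stressed ventricles, was called higher in P635L Ctr than in WT Ctr by edgeR. The sum of the 5 was 151 to 410 CPM in WT Ctr, 194 to 291 in WT Tnpo3, 5140 to 9800 in P635L Ctr and 919 to 4510 in P635L Tnpo3, and its part in the results was not tested.

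Per kilobase of exon, Myh6 led the family in every group, from 2590 ± 149 CPM per kb in P635L Ctr to 4040 ± 528 in WT Ctr. In WT Ctr it was followed by Myh7 at 99.3 ± 26, Myh7b at 33.9 ± 9.05, Myh14 at 21.8 ± 4.84, Myh9 at 19.7 ± 3.42, Myh11 at 7.67 ± 3.53 and Myh10 at 3.49 CPM per kb. Myh7b and Myh14, Myh14 and Myh9, and Myh11 and Myh10 were neighbours in that order whose SD ranges overlapped or nearly met, and they are not ranked further. In P635L Ctr the order below Myh6 was different: Myh7 (16.1 ± 4.22), Myh9 (15.5 ± 1.89) and Myh14 (13.7 ± 1.27 CPM per kb) lay close together and Myh7b was last, at 0.115 ± 0.00652.

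**Figure D1:**
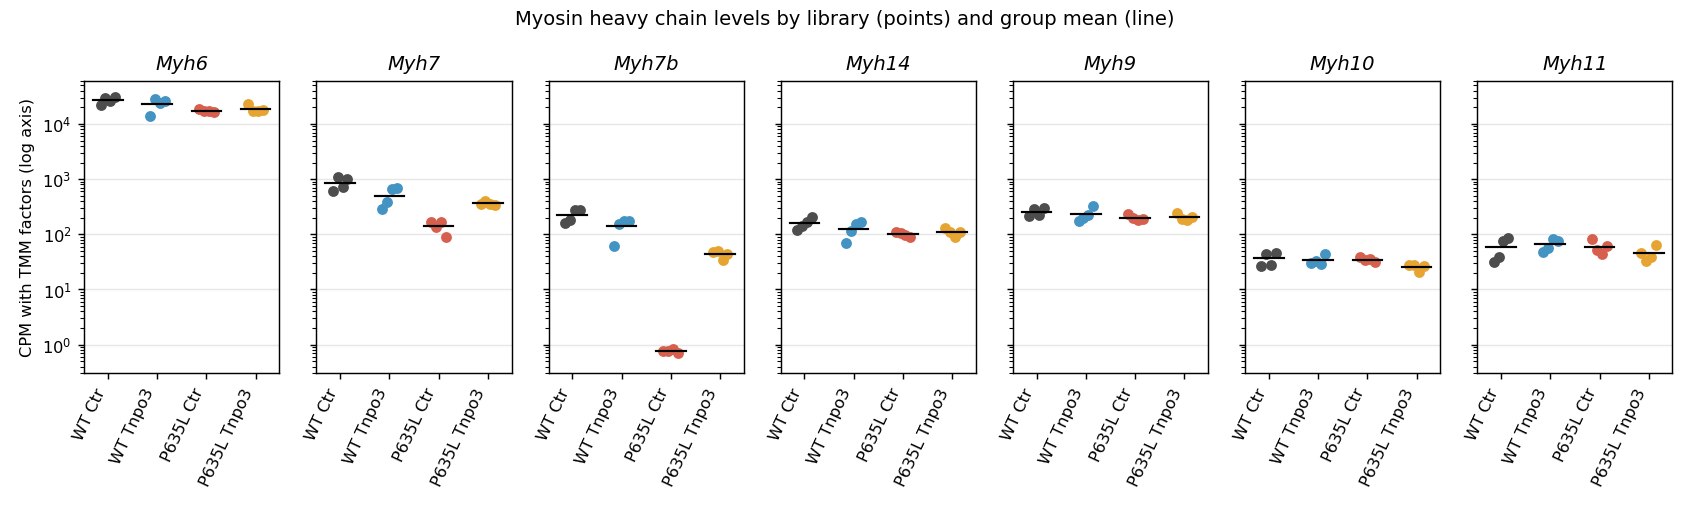
Normalised counts (CPM with TMM factors, log axis) of the 7 myosin heavy chain genes in the 4 groups, with 1 point per library and a line at the group mean. Myh7b in P635L Ctr lies between 0.716 and 0.821 CPM, while its lowest library in any other group is at 33.9 CPM.

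Myh7b (ENSMUSG00000074652, chr2:155453132-155476227, plus strand, GRCm39) was almost silent in mutant hearts given the control virus. Its counts per library were 4489, 4465, 9950 and 9642 in WT Ctr and 33, 72, 36 and 38 in P635L Ctr. As CPM these were 162, 184, 273 and 279 against 0.76, 0.76, 0.821 and 0.716. The P635L Ctr mean was 0.34% of the WT Ctr mean, or 294-fold lower, and the log2 fold change was -8.2 (SE 0.36). The P635L Ctr libraries were alike and far from every other library.

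With the Tnpo3 virus, the mutant hearts held 48, 50.5, 33.9 and 44.7 CPM of Myh7b. That is 57.9-fold above P635L Ctr, with a log2 fold change of 5.85 (SE 0.33), and 19.7% of the WT Ctr mean. In WT Tnpo3 the libraries stood at 62.3, 152, 175 and 174 CPM, with replicate 1 well below the others. Every P635L Tnpo3 library was lower than every WT library of either virus, as happened without overlap, in either direction, for 11.7% of all genes against WT Ctr and 11.5% against WT Tnpo3.

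Between the groups given the Tnpo3 virus, the fitted log2 change of Myh7b was -1.67 (SE 0.26), and P635L Tnpo3 reached 31.4% of the WT Tnpo3 mean. Against WT Ctr the change in P635L Tnpo3 was -2.34 (SE 0.27). Both use the P635L Tnpo3 libraries whose Myh7b values helped to choose the gene, so neither is a test.

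Bulk libraries cannot tell fewer cells of a type from less RNA per cell. The 5 cardiomyocyte markers Tnnt2, Tnni3, Actc1, Ryr2 and Pln summed to 27700 to 37900 CPM in WT Ctr and 24200 to 27400 in P635L Ctr. These groups did not overlap, and 1 of the 5 (Tnni3) was called lower. In WT Tnpo3 the sum was 24400 to 37300 CPM and in P635L Tnpo3 23900 to 27500. Between P635L Tnpo3 and P635L Ctr, 0 of the 5 were called by edgeR. The part of these markers in the sarcomeric results was not tested.

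Myh7b was set against the genes beside it on the chromosome. Of the tested genes nearest on each side, Gss (-0.25, adjusted p = 0.181, edgeR), Edem2 (-0.02, adjusted p = 0.939, edgeR) and Procr (-0.83, adjusted p = 0.101, edgeR) were not called between P635L Ctr and WT Ctr by edgeR's quasi-likelihood test over all genes. Gm14257, 16737 bases away, had a higher level in P635L Ctr (1.81, SE 0.57, adjusted p = 0.0405, edgeR) but lay at 0.256 ± 0.142 and 0.902 ± 0.42 CPM. Trpc4ap, whose end overlaps Myh7b by 37 bases on the other strand, gave -0.14 (adjusted p = 0.383, edgeR). None of these 5 was called between P635L Tnpo3 and P635L Ctr. The row for Mir499, the miR-499 hairpin inside Myh7b, held 3 counts over all 16 libraries, too few for a test.

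**Figure D2:**
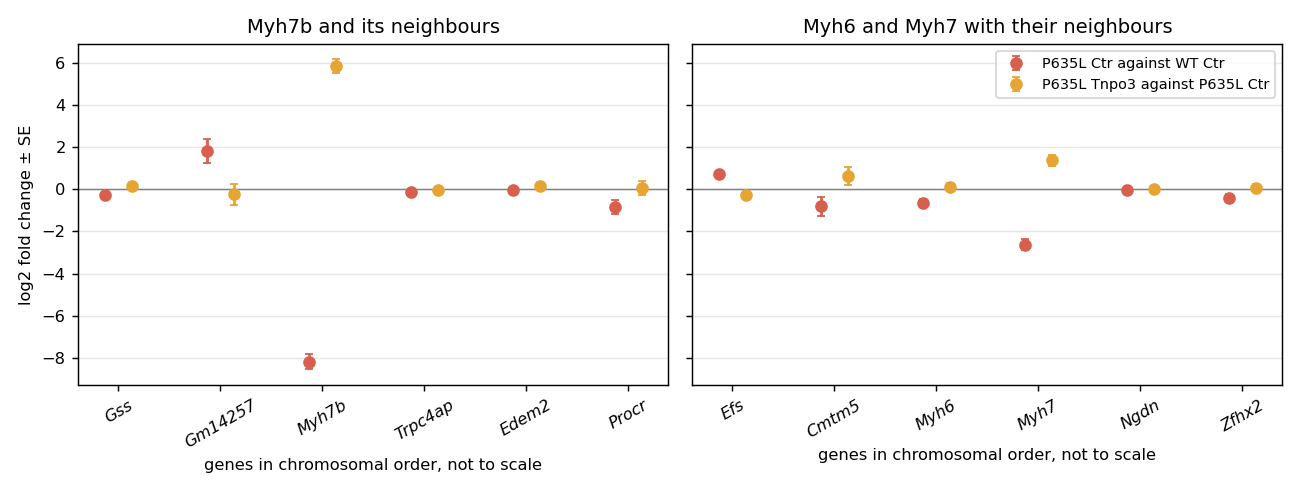
Log2 fold change with its SE (vertical axis) for Myh7b and its neighbours, and for Myh6 and Myh7 with theirs, in chromosomal order and not to scale; red is P635L Ctr against WT Ctr and yellow is P635L Tnpo3 against P635L Ctr. Myh7b at -8.2 and 5.85 lies far from the genes on either side of it.

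Myh7 (ENSMUSG00000053093, chr14:55208141-55232083, minus strand, GRCm39) had the next largest change. Its CPM were 619, 1090, 717 and 991 in WT Ctr and 166, 134, 167 and 89.5 in P635L Ctr, with no overlap. The P635L Ctr mean was 16.2% of that in WT Ctr, with a log2 fold change of -2.62 (SE 0.28). This is the beta chain, and it was lower in these mutant ventricles, while Nppa, a gene that like Myh7 is known to rise in stressed ventricles, went from 264 ± 107 to 7540 ± 1960 CPM.

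Mutant hearts given the Tnpo3 virus held 361, 409, 348 and 333 CPM of Myh7. All 4 libraries lay above every P635L Ctr library, and the log2 fold change was 1.39 (SE 0.27), or 2.61-fold between the means. The level was 42.4% of WT Ctr (log2 fold change -1.24, SE 0.26). Both comparisons use libraries whose Myh7 values helped to choose the gene and are descriptions.

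Without the rich libraries the change against WT Ctr was -0.84. WT Tnpo3 held 282, 383, 662 and 681 CPM of Myh7, a range that takes in the P635L Tnpo3 libraries. Between those groups, neither of which entered the choice of Myh7, the change was -0.47 (SE 0.26, adjusted p = 0.33, edgeR), which the spread in WT Tnpo3 does not separate from 0.

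Myh6 (ENSMUSG00000040752, chr14:55179378-55204384, minus strand, GRCm39), which lies next to Myh7, was lower in mutant hearts by a smaller step. Its CPM were 22500, 29300, 26300 and 30500 in WT Ctr and 18800, 17500, 17000 and 16400 in P635L Ctr, so no library of one group reached the other. The mean was 64.2% of WT Ctr, and the log2 fold change was -0.64 (SE 0.18, adjusted p = 0.0241, edgeR). In the authors' deposited table, with the sign turned to the same direction, it was -0.63 with an adjusted p of 7.27e-06.

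The Myh6 call was lost in 6 of 25 alternatives, among them that without the rich libraries (-0.45, adjusted p = 0.172, edgeR). P635L Tnpo3 held 22900, 16900, 17500 and 18000 CPM and overlapped with P635L Ctr (0.11, SE 0.18, adjusted p = 0.812, edgeR). WT Tnpo3 held 14100, 28900, 23500 and 26100 CPM, with replicate 1 lowest, as it was for Myh7 and Myh7b.

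The reads of Myh6 and Myh7 are uncertain where the near-identical genes could share them, since how multi-mapping reads were counted is not given in the sources used here. Other genes overlap them too. Mhrt lies over Myh7 on the other strand and held 107 ± 48 CPM in WT Ctr and 58.3 ± 17.5 in P635L Ctr (-0.87, SE 0.35, adjusted p = 0.109, edgeR). The Mir208b row, inside Myh7 on the same strand, held 20.7 CPM in WT Ctr, 18.6 in WT Tnpo3, 11.2 in P635L Ctr and 20 in P635L Tnpo3 (-0.89, adjusted p = 0.0845, edgeR, for P635L Ctr against WT Ctr). In poly(A)-selected RNA such a row counts host or precursor reads, not the mature microRNA.

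Outside the pair, 1 of the 4 neighbours was called: Efs rose from 4.45 ± 0.836 to 7.38 ± 0.863 CPM in P635L Ctr (0.73, SE 0.15, adjusted p = 0.00324, edgeR). Cmtm5 (-0.8), Ngdn (-0.05) and Zfhx2 (-0.39) were not.

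The ratio of Myh6 to Myh7 per base of exon was 46.6, 34.3, 46.9 and 39.4 in WT Ctr and 145, 168, 130 and 235 in P635L Ctr. The mutant ratio was higher by 2 on the log2 scale, or 3.99-fold, a description because it rests on the values that chose the genes. With the Tnpo3 virus the mutant ratio was 81.3, 52.8, 64.5 and 69, below every P635L Ctr library. The log2 difference from P635L Ctr was -1.32, again a description, since the P635L Ctr values of Myh7 enter it.

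In WT Tnpo3 the ratio was 64.1, 96.7, 45.4 and 49.1, against WT Ctr a log2 difference of 0.56, which rests on the WT Ctr values and is not tested. P635L Tnpo3 and WT Tnpo3 overlapped, with a log2 difference of 0.12 (two-sided exact permutation p = 0.686). Of the summed Myh6, Myh7 and Myh7b transcripts per base, Myh6 made up 96.83% in WT Ctr and 99.38% in P635L Ctr. Myh7 made up 2.35% in WT Ctr, 1.67% in WT Tnpo3, 0.615% in P635L Ctr and 1.5% in P635L Tnpo3. Myh7b made up 0.811%, 0.589%, 0.00443% and 0.237%.

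**Figure D3:**
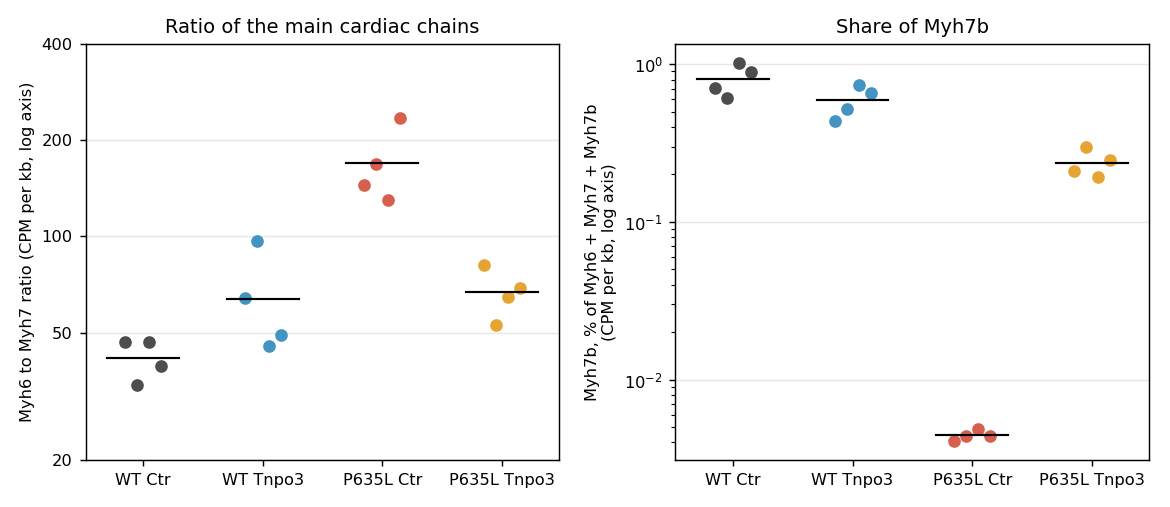
Left, the ratio of Myh6 to Myh7 (CPM per kb, log axis), and right, Myh7b as a percent of the summed Myh6, Myh7 and Myh7b (log axis), with 1 point per library and a line at the group mean. The 4 P635L Ctr libraries hold the highest ratios, 130 to 235, and the lowest Myh7b shares.

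Of the nonmuscle chains, Myh14 (ENSMUSG00000030739, chr7:44255227-44320267, minus strand, GRCm39) was lower in P635L Ctr. Its CPM were 121, 143, 167 and 203 in WT Ctr and 109, 105, 95.7 and 88.8 in P635L Ctr, with no overlap. The log2 fold change was -0.67 (SE 0.22, adjusted p = 0.046, edgeR), close to the threshold, and the call was lost in 19 of 25 alternatives. Without the rich libraries it was -0.49 (adjusted p = 0.199, edgeR). P635L Tnpo3, at 110 ± 15.4 CPM, did not separate from P635L Ctr (0.14, adjusted p = 0.802, edgeR). The gene 2310016G11Rik overlaps Myh14 on the other strand by 2635 bases and was lower too, at 2.51 ± 0.332 and 0.819 ± 0.23 CPM (-1.63, SE 0.26, adjusted p = 0.000366, edgeR). Reads of both strands cannot be assigned with certainty, since the strand setting is not given in the sources used here.

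Myh9 (ENSMUSG00000022443, chr15:77644787-77726375, minus strand, GRCm39), the chain of most cell types that is best known from platelets, was at 214, 283, 220 and 302 CPM in WT Ctr and 236, 195, 182 and 187 in P635L Ctr. These overlapped, and the log2 fold change of -0.35 (SE 0.17, adjusted p = 0.197, edgeR) missed the threshold. Myh10 (ENSMUSG00000020900, chr11:68582385-68707458, plus strand, GRCm39), the nonmuscle IIB chain, was at 27, 44.8, 27.6 and 46.7 CPM in WT Ctr, high in both rich libraries, and at 38.2, 34.4, 35.9 and 31.3 in P635L Ctr (-0.06, adjusted p = 0.852, edgeR).

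In P635L Tnpo3 the Myh10 values lay below the P635L Ctr range, with 27.4, 27.4, 20.5 and 26.9 CPM. Between these groups 20.4% of all genes did not overlap, in either direction. The log2 fold change of -0.45 (SE 0.18, adjusted p = 0.179, edgeR) was not called, and it passed in 2 of 25 alternatives. The 5 fibroblast markers Pdgfra, Col1a1, Dcn, Tcf21 and Lum, a cell type that expresses Myh9 and Myh10, summed to 625 to 907 CPM in WT Ctr, 1070 to 1570 in P635L Ctr and 705 to 960 in P635L Tnpo3. All 5 were called higher in P635L Ctr, and 4 of 5 lower in P635L Tnpo3 than in P635L Ctr; their part in the Myh9 and Myh10 values was not tested.

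Myh11 (ENSMUSG00000018830, chr16:14012399-14109236, minus strand, GRCm39) varied widely within groups. Its CPM were 31.4, 39.6, 76 and 86.1 in WT Ctr, 82.6, 52.3, 43.4 and 61.1 in P635L Ctr, and 45.2, 33, 39.5 and 65.2 in P635L Tnpo3, so all groups overlapped. The changes were 0.04 (SE 0.31, adjusted p = 0.956, edgeR) for P635L Ctr against WT Ctr and -0.39 (SE 0.31, adjusted p = 0.563, edgeR) for P635L Tnpo3 against P635L Ctr. The 5 smooth muscle markers Acta2, Tagln, Cnn1, Smtn and Lmod1 summed to 266 to 360 CPM in WT Ctr, 248 to 294 in P635L Ctr and 207 to 281 in P635L Tnpo3, with 0 of 5 called in either comparison by edgeR.

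Counted over the family, 4 of 7 members (Myh6, Myh7, Myh7b and Myh14) were called between P635L Ctr and WT Ctr, all lower. Of all 18662 genes tested, 14.2% were called in that comparison and 7.14% were called lower. The same 4 members had groups that did not overlap, as did 19.1% of all genes. Nothing is read from this count, because the comparison chose the genes. The median change of the members was -0.64, and that of all genes -0.05.

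Between P635L Tnpo3 and P635L Ctr, Myh7 and Myh7b, 2 of 7, were called, both higher. Myh7, Myh7b and, as lower, Myh10 had groups that did not overlap. The background was 3.88% in either direction, 1.63% higher and 20.4% without overlap, and the medians were 0.11 and 0.01. Myh7 and Myh7b rest on libraries used to choose them, so again the count is a description. Between P635L Tnpo3 and WT Ctr, Myh7 and Myh7b were called, both lower, where 3.07% of all genes were called and 1.58% called lower. Between P635L Tnpo3 and WT Tnpo3, Myh7b alone of the 7 was called, where 3.72% of all genes were, and 2% lower. These counts too use libraries by which the 2 genes were chosen, and nothing is read from them.

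In WT hearts the Tnpo3 virus changed 0 of 7 members by edgeR and 0 by DESeq2, where 0.00536% of all genes were called. At an unadjusted p under 0.05 there were 2, Myh7 (-0.77, SE 0.26) and Myh7b (-0.67, SE 0.25), whose WT Ctr values had a part in the choice of the genes. The changes in mutant hearts were 1.39 and 5.85. The interaction, which is the virus effect in P635L minus that in WT, was 2.16 (SE 0.37) for Myh7 and 6.53 (SE 0.41) for Myh7b. It holds the differences by which these genes were chosen, so no p is given; 0.504% of all genes were called for it.

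**Figure D4:**
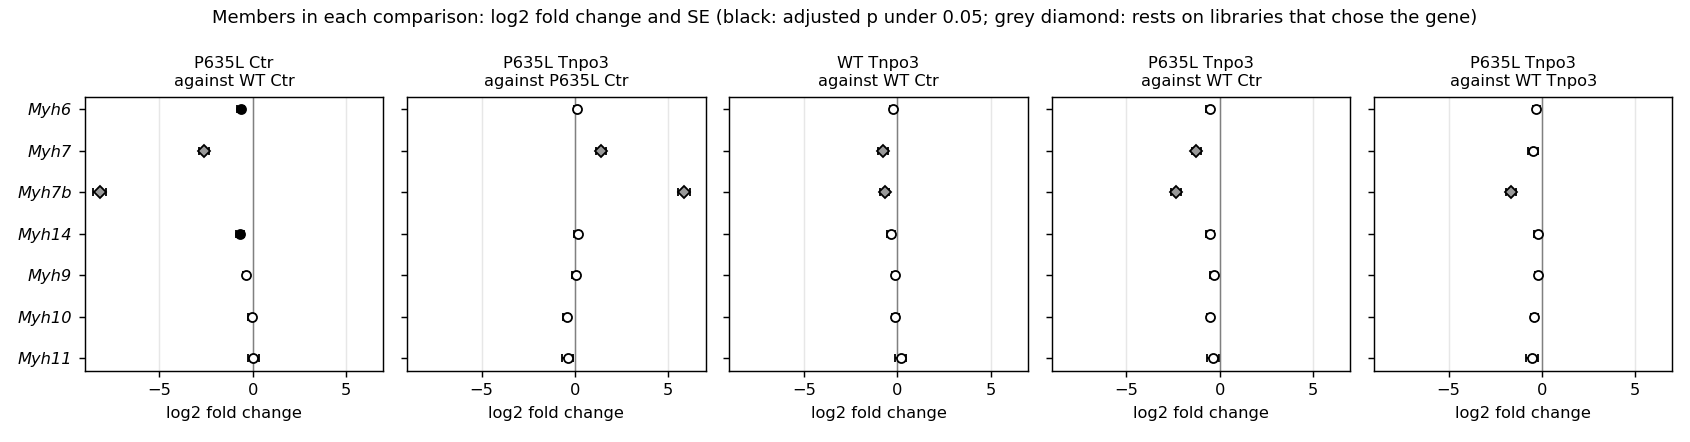
Log2 fold change with its SE for each member in 5 comparisons between groups; black points have an adjusted p under 0.05 (edgeR), white points do not, and grey diamonds rest on libraries by which the gene was chosen and carry no test. Myh7 and Myh7b lie to the left for P635L Ctr against WT Ctr (-2.62 and -8.2) and to the right for P635L Tnpo3 against P635L Ctr (1.39 and 5.85).

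Across the 16 libraries, log2 CPM of Myh7 and Myh7b had a Pearson correlation of 0.92, and Myh6 and Myh14 one of 0.86. Myh7b had -0.04 with Myh10 and 0.02 with Myh11. The libraries fall into 4 groups that differ in level, so these are descriptions.

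Among 12489 genes with a mean log2 CPM no lower than 1, those most like Myh7b over the 16 libraries were Tnnt1 (0.972), ENSMUSG00000120208 (0.968), Pm20d1 (0.959), Gm34302 (0.958) and Lgi1 (0.957). Tnnt1, the slow skeletal troponin T, was at 28 ± 3.22 CPM in WT Ctr, 24 ± 6.26 in WT Tnpo3, 6.52 ± 0.664 in P635L Ctr and 15.7 ± 1.4 in P635L Tnpo3. Gm34302 had 49.1 ± 14.5, 46.8 ± 13.2, 0.0844 ± 0.0793 and 7.77 ± 5.59 CPM, a loss in P635L Ctr of the same kind as that of Myh7b. Lgi1 had 9.07, 6.7, 0.403 and 3.59 CPM.

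Those most like Myh7 were Adam11 (0.947), Tnnt1 (0.924), Myh7b (0.923), Gm35576 (0.918) and Trdn (0.905). Trdn, which codes for triadin of the calcium release unit, was at 634 ± 58, 625 ± 87.4, 404 ± 33.9 and 597 ± 23.9 CPM in the same order. Most like Myh6 were Cadm4 (0.929), Smarca4 (0.912) and Zbtb12 (0.89), and most like Myh14 were Rgp1 (0.941), Chd4 (0.939) and Uaca (0.937). Myh9 was closest to Tnks1bp1 (0.939), Myh10 to Nfe2l1 (0.933) and Myh11 to Sema3g (0.849) and Lmod1 (0.812), the last a smooth muscle gene.

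The partners of the heavy chains in the thick filament were followed as a list of 10 genes, of which 8 were tested. Between P635L Ctr and WT Ctr, 5 of 8 were called, 2 higher and 3 lower, beside 14.2% of all genes (median 0.27, all genes -0.05). This list and those below were chosen with earlier results of these data known, so their counts are descriptions. The ventricular light chains were lower: Myl3 went from 9760 ± 1730 to 3720 ± 215 CPM (-1.39, SE 0.14, adjusted p = 3.09e-06, edgeR) and Myl2 changed by -0.61 (adjusted p = 0.00424, edgeR). Higher were genes of fast skeletal muscle. Myl1, a fast skeletal light chain, went from 40.2 ± 14.4 to 392 ± 9.03 CPM (3.29, SE 0.47, adjusted p = 0.000311, edgeR), and Mybpc2, the fast skeletal myosin binding protein C, from 20.3 ± 2.65 to 288 ± 47.2 CPM (3.83, SE 0.33, adjusted p = 1.3e-06, edgeR). The other gene called lower, Mybphl, reached at most 1.05 CPM in any library.

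In P635L Tnpo3 against P635L Ctr, 3 of 8 were called, beside 3.88% of all genes, each against its first change: Myl3 by 0.97 (SE 0.14, adjusted p = 0.000838, edgeR), Myl1 by -1.74 (SE 0.44, adjusted p = 0.0434, edgeR) and Mybpc2 by -1.82 (SE 0.3, adjusted p = 0.00345, edgeR). Both comparisons use the P635L Ctr libraries. P635L Tnpo3 replicate 4 stood apart here, with 258 CPM of Myl1 against 62.3 to 76 in the others and 160 CPM of Mybpc2 against 43.4 to 67. It also held 4510 CPM of Nppa against 916 to 1200, but its Myh7b of 44.7 and Myh7 of 333 CPM were near those of the other 3.

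The fast skeletal heavy chains themselves were nearly absent. Myh1, Myh2, Myh3 and Myh4 summed to 41, 24, 19 and 3 counts over all 16 libraries, and Myh8, Myh13 and Myh15 to 106, 70 and 202. Only Myh8 passed the filter, and it was not called (0.19, SE 0.8, adjusted p = 0.903, edgeR, for P635L Ctr against WT Ctr). The 6 skeletal fibre markers Actn3, Tnnt3, Tnni2, Mylpf, Myh4 and Myh1 summed to 5.01 to 6.26 CPM in WT Ctr and 24.6 to 36.6 in P635L Ctr, with Tnnt3 and Tnni2 called higher, while Myh4 was at 0 in all libraries of both groups.

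A list of 15 genes on myosin regulation held mostly light chains and their kinases and phosphatases, with kinases of striated muscle among them. Of the 15, 5 were called between P635L Ctr and WT Ctr, 3 higher and 2 lower, beside 14.2% of all genes (median -0.09). The 5 include the kinase genes Mylk2, Mylk3 and Mylk4, so nothing is read on nonmuscle or smooth muscle myosin from the count. The kinase gene Mylk4 went from 125 ± 65.8 to 11.4 ± 2.58 CPM (-3.47, SE 0.39, adjusted p = 2.54e-05, edgeR), and Mylk3, the cardiac light chain kinase, changed by -0.51 (adjusted p = 0.0107, edgeR). Mylk2, the skeletal light chain kinase, rose from 0.0588 ± 0.0354 to 2.79 ± 0.415 CPM, and the light chains Myl6b and Myl12a by 1 and 0.68. With the Tnpo3 virus 2 of 15 were called in mutant hearts, beside 3.88% of all genes, Mylk4 by 1.89 (SE 0.37, adjusted p = 0.0108, edgeR) and Myl6b by -0.56 (adjusted p = 0.0427, edgeR).

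Of 9 genes of myosin folding and turnover, 0 were called between P635L Ctr and WT Ctr, beside 14.2% of all genes (edgeR, median -0.17). Of these 9, 1 was called between P635L Tnpo3 and P635L Ctr, beside 3.88%. Trim63, a muscle ubiquitin ligase that acts on myosin, went from 172 ± 17.2 CPM in P635L Ctr to 118 ± 8.88 in P635L Tnpo3 (-0.54, adjusted p = 0.0121, edgeR). Of 16 regulators tied to myosin switching, 2 were called between P635L Ctr and WT Ctr, a share near the 14.2% of all genes. Sox6, a repressor of slow fibre genes that the miR-208 and miR-499 family is known to target, rose from 11.2 ± 2.79 to 17.7 ± 1.95 CPM in P635L Ctr (0.66, SE 0.18, adjusted p = 0.017, edgeR). Thrb, a thyroid hormone receptor, changed by -0.48 (SE 0.15, adjusted p = 0.0427, edgeR). The other 14, among them Thra, Tead1, Mef2a, Mef2c and Purb, were not called.

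The authors' deposited splicing tables, made with rMATS, hold 23 events of the 7 genes for WT Ctr against P635L Ctr, 37 for P635L Tnpo3 and 35 for WT Tnpo3. An event was called if the FDR was under 0.05, the inclusion level differed by 0.1 or more, and each group had 10 or more junction reads per library on average. By that rule 1, 1 and 0 member events were called, against 1.97%, 1.65% and 0.731% of all events. Both calls are the same event: the end of the first exon of Myh7, an alternative 5′ splice site in which the long form spans chr14:55231790-55232083 (minus strand, GRCm39) and the short form lacks 178 of these bases.

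The inclusion level of the long form, at the positions listed in the tables, was 0.2, 0.276, 0.524 and 0.543 in WT Ctr and 1, 0.75, 1 and 0.769 in P635L Ctr, with no overlap (authors' deposited difference, WT Ctr minus P635L Ctr, -0.494). The levels were 0.698, 0.455, 0.95 and 0.81 in P635L Tnpo3 (difference -0.342, authors' FDR 0.0424), and 0.375, 0.565, 0.378 and 0.714 in WT Tnpo3 (difference -0.122, authors' FDR 1). P635L Tnpo3 and P635L Ctr overlapped, with a difference of -0.152. This is a description, since the event was picked by its calls in these same libraries.

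The reads behind these levels are few. The long form had 141 reads over the 4 WT Ctr libraries and 151 over P635L Ctr, and the short form had 87 and 10. In P635L Tnpo3 they were 102 and 17, and in WT Tnpo3 107 and 42. These are raw sums, not scaled to library totals, which were 28493249 to 40610576 counts in WT Ctr and 37803840 to 85922669 in P635L Ctr. The inclusion level counts long-form reads only after division by a length factor of 2, so it lies below their raw share. The WT Ctr library at listed position 1 rests on 3 reads. Both forms join the next exon, chr14:55231045-55231082. The skipped exon event of that exon had a mean of 54.2 junction reads in WT Ctr and 4.5 in P635L Ctr. The first exon event had 57 and 40.2, so most of its P635L Ctr reads were not matched at the next exon. What these reads are was not tested, and no switch of splice site is read from the levels. Reads of an exon near the 5′ end of Myh7, per 100 reads of one near the 3′ end, ran from 1.23 to 3.96 in WT Ctr and from 1.25 to 11.4 in P635L Ctr, and their part in the levels was not tested. The call in P635L Tnpo3 was lost at an FDR under 0.01.

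**Figure D5:**
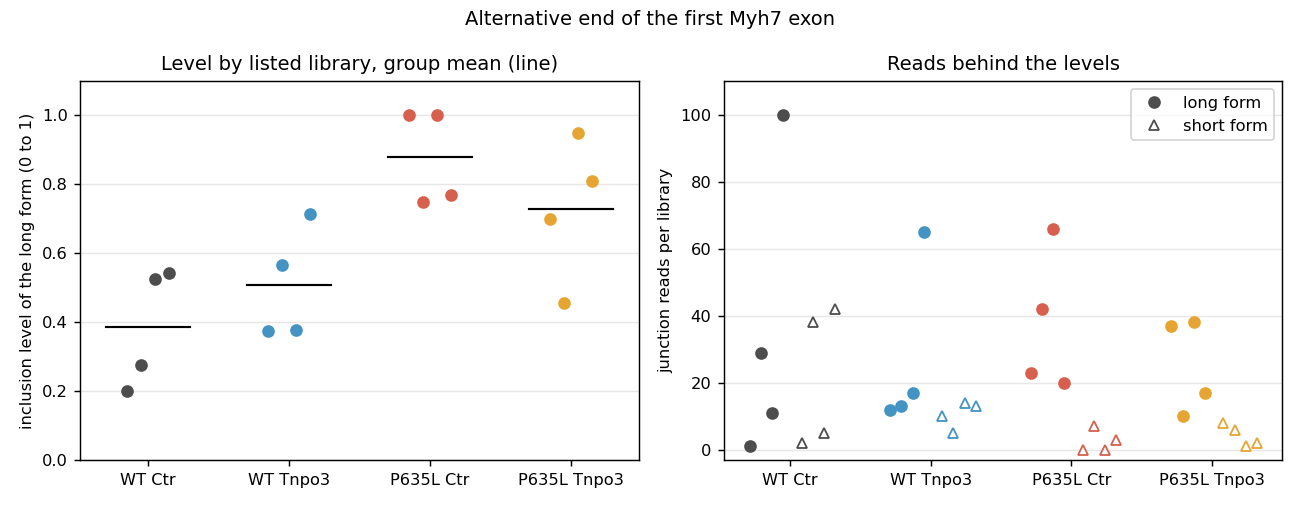
Left, inclusion level (0 to 1) of the long form of the first Myh7 exon at each listed library position, with a line at the group mean; right, junction reads per library for the long form (circles) and the short form (triangles). Short-form reads are at most 7 in each P635L Ctr library, while long-form reads there are 20 to 66.

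No other event of these genes was called. In Myh7b, the exon at chr2:155473634-155473749 was joined by 447, 428, 928 and 743 reads in WT Ctr and by 6, 9, 4 and 0 in P635L Ctr, and it was included at 0.998 and 1. The few Myh7b reads left in mutant hearts thus held this exon. An exon of 64 bases at chr2:155459782-155459845 was included at 0.973 ± 0.0211 in WT Ctr and 0.859 ± 0.244 in P635L Tnpo3, with 5 and 10 skipping reads and no call.

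The 10 Myh6 events in the P635L Ctr table differed by at most 0.005, and the 25 in the P635L Tnpo3 table by at most 0.032. A retained intron of Myh9 (569 bases) passed the FDR in both mutant tables (0.000779 and 0.000766) with small differences of -0.057 and -0.066. In WT Tnpo3 the difference was -0.029 (authors' FDR 0.0508). The level was 0.00875 in WT Ctr, which all these tables share, and 0.0373 in WT Tnpo3. In Myh11, the exon of 39 bases at chr16:14015914-14015952, near the end of the gene, was included at 0.323 ± 0.0317 in WT Ctr, 0.305 ± 0.0495 in WT Tnpo3, 0.385 ± 0.0402 in P635L Ctr and 0.296 ± 0.0939 in P635L Tnpo3, and was not called.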

How the data were processed

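Per the submitters' processing notes, reads were aligned with STAR 2.7.9a to GRCm39 and counted with featureCounts 2.0.6. The deposited table holds raw counts per gene; strand and multi-mapping settings are not given in the sources used here. The authors' deposited DESeq2 tables give log2 fold changes and p-values. Per the file headers, the authors' deposited rMATS tables give junction reads, inclusion levels as fractions, p-values and an inclusion difference (a score). The order of libraries in those tables is not stated. A table of P635L Tnpo3 against P635L Ctr was not used here.

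Counts were tested with edgeR 4.0.16 (quasi-likelihood F test, robust, TMM, filterByExpr, 18662 genes) in R 4.3.3, with a mean for each group over all 16 libraries and 12 residual degrees of freedom. Adjusted p-values are Benjamini-Hochberg over all genes tested, two-sided, with a threshold of 0.05. In counts simulated for P635L Ctr against WT Ctr (18378 genes tested, 200 changed), 72% of 2-fold and 97% of 4-fold changes were recovered, and 3.98% of calls were false. The changes were set outside the lowest expressed genes, and each gene had the same dispersion in every group. The real groups differ in spread, with library correlations of 0.9462 to 0.9693 within WT Ctr and 0.9806 to 0.9884 within P635L Ctr. These shares therefore do not carry over to the real comparison. DESeq2 1.42.0, other scalings and omitted libraries served as alternatives.

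The members and the lists were chosen with earlier results of these data known. Genes named beside the members are the nearest or overlapping genes, the 5 (Myh7, Myh7b) or 3 genes most correlated in log2 CPM (prior count 2), and at most 3 called genes of each list and direction. Replicates are separate mice. Equal replicate numbers were not taken to pair libraries, since 6 of 24 pairs had a correlation above 0.1.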

Additional observations from a re-analysis of the deposited data

Results flagged for a closer look

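In 6 of 92 groups of 4 libraries looked at, 1 library lay far from the other 3; chance gives about 1 in 20. Myh10 was lowest in P635L Tnpo3 replicate 3, at 20.5 CPM. Myl1 was highest in P635L Tnpo3 replicate 4, at 258 CPM, the library in which Nppa and Mybpc2 were also highest of that group and Tnpo3 was lowest. Myl2 was lowest in WT Ctr replicate 4, at 11400 CPM, and highest of its group in P635L Tnpo3 replicate 3, at 13700 CPM. Mybphl had reads in P635L Ctr replicate 1 alone of its group, at 0.023 CPM, and Thrb was highest of that group in the same library, at 10.4 CPM.

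The effect of the Tnpo3 virus differed between genotypes for Myh7, by 2.16 on the log2 scale, and for Myh7b, by 6.53. Both differences contain the comparisons by which these genes were chosen.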

How the results depend on the processing

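The 66 results recomputed were summary values and changes of single members. Of the summary values, 248 stayed close to those reported, 16 moved and 1 changed sign. The 248 include ratio differences with a replicate block or without gene length, which are fixed by arithmetic and could not move. A count of 3 members in place of 4 was taken as close. For single members, 990 recomputed changes kept sign and call, 31 lost the call, 3 gained it and 19 changed sign. Of the 7 members, 2 (Myh7 and Myh7b) in place of 4 were called between P635L Ctr and WT Ctr without the rich libraries and where a log2 change of 1 or more was asked for, and 2 to 4 when 1 library was left out. Myh7b alone, 1 in place of 2, was called between P635L Tnpo3 and WT Ctr with no low-count filter, without the rich libraries and without the libraries with Xist above Y-linked genes, and 1 to 3 members when 1 library was left out. The interaction called 1 member, Myh7b, without the Xist libraries. With upper-quartile factors, 1 myosin regulation gene was called between the mutant groups and 1 switching regulator between P635L Ctr and WT Ctr. At an FDR under 0.01 the Myh7 event was called in 0 of the tables with P635L Tnpo3. The Myh6 to Myh7 ratio of P635L Tnpo3 against WT Tnpo3 ran from -0.02 (without WT Tnpo3 replicate 3) to 0.34 when 1 library was left out.

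Members that were not called changed sign in 19 cases. When 1 library was left out, P635L Ctr against WT Ctr ran from -0.17 to 0.29 for Myh11 and from -0.18 to 0.08 for Myh10, and Myh10 gave 0.39 without the rich and 0.12 without the Xist libraries. P635L Tnpo3 against P635L Ctr ran from -0.07 to 0.13 for Myh9. WT Tnpo3 against WT Ctr ran from -0.03 to 0.43 for Myh11 and from -0.26 to 0.03 for Myh10, with 0.19 without the rich libraries. P635L Tnpo3 against WT Tnpo3 ran from -0.31 to 0.02 for Myh9, which also gave 0.02 without the rich or the Xist libraries; without the latter Myh6 gave 0.01 and Myh14 gave 0. The cause was not tested.

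The replicate numbers did not meet the rule for pairing, a correlation over 0.1 in every pair (range -0.26 to 0.55). In 5 of 24 pairs, a library correlated best with its own number in the other group. WT Ctr and WT Tnpo3 came nearest, with 0.096, 0.108, 0.276 and 0.552, and numbers 3 and 4 correlated best with their own. With the number as a block, 3 members in place of 4 were called between P635L Ctr and WT Ctr, the Myh14 change being -0.63 (adjusted p = 0.0697, edgeR). The ratio differences could not move under this block. With groups of equal size, the mean of the paired differences equals the difference of the group means. Leaving out a library of the splicing tables kept the authors' FDR, which cannot be recomputed, and a form of the tables with junction reads alone was not run because they hold no other reads. Depth limits the Myh7b exons in P635L Ctr and the first Myh7 exon in every group.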

Other observations

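Myh15, a heavy chain gene that did not pass the filter on low counts, had 35, 0, 52 and 96 counts in the 4 P635L Tnpo3 libraries. In the other 12 libraries it had at most 9 counts.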
